A study of Mus musculus with 6 samples.

Results

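Expression of the class 3 semaphorins and of their receptors plexin D1 and the neuropilins was examined in CD133 high and CD133 low cells of 344SQ tumours. The members are the probe sets, each a group of short probes for a transcript, that the array annotation assigns to Sema3a, Sema3b, Sema3c, Sema3d, Sema3e, Sema3f, Sema3g, Plxnd1, Nrp1 or Nrp2 alone. They number 27 of the 45037 probe sets tested and cover 7 ligand genes and 3 receptor genes, with 1 to 4 probe sets for each gene. The genes were picked with results of the comparison of CD133 high and CD133 low arrays known. Their differences in that comparison are therefore a description, and the adjusted p-values beside them are no independent evidence.

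344SQ is a mouse lung adenocarcinoma line. It came from an animal of the genotype KrasLA1/+; p53R172HdelG/+, so both fractions carry the same alleles, and it was grown under the skin of syngeneic mice, where it is known to spread widely. The tumours were sorted by flow cytometry on CD133, the glycoprotein encoded by Prom1, and total RNA of each fraction was hybridised to 3 Affymetrix arrays, 6 in all. The labels give no treatment, age of the hosts or number of tumours, and the sort is described by CD133 alone. They do not state that arrays of the same fraction derive from separate animals, so every p-value here reflects the spread of these samples alone, and that spread may be technical. The line stands for a single tumour, and host cells can remain in either fraction.

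Class 3 semaphorins are secreted proteins first known as guidance cues that repel growing axons. Most bind neuropilin 1 or neuropilin 2, which have short cytoplasmic tails and pass the signal on through plexins of the A class. Sema3E is the exception, since it can bind plexin D1 directly, a receptor best known on endothelial cells. Plexins act on adhesion and the cytoskeleton. Neuropilins also bind members of the VEGF family and present them to VEGF receptors, which puts them in the biology of blood vessels and lymphatics. Furin-like convertases cut the secreted semaphorins, and in cancers single members have been described as either restraining or favouring spread.

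The windows upstream of Sema3e, Sema3c, Nrp1 and Nrp2 are shown because these genes carry most of the differences described here. Each runs 5′ to 3′ on the strand of the gene over the 250 bases before its start in RefSeq (GRCm38.p6), and capitals mark matches to the motifs searched.
Sema3e, chr5:14025026-14025275, plus strand: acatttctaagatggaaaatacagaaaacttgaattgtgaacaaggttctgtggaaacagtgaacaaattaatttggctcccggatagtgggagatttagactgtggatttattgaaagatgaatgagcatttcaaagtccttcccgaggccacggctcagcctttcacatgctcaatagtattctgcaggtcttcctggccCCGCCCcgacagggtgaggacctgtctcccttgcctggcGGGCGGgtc
Sema3c, chr5:17574566-17574815, plus strand: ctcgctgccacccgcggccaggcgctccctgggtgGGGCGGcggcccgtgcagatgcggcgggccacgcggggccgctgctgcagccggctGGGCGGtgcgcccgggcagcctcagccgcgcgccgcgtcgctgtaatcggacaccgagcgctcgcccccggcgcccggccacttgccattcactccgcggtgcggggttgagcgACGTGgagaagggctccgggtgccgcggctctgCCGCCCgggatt
Nrp1, chr8:128358823-128359072, plus strand: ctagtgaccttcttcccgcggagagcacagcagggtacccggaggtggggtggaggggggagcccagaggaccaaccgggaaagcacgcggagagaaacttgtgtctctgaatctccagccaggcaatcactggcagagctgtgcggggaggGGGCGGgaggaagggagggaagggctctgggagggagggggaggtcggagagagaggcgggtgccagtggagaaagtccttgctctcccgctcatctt
Nrp2, chr1:62703067-62703316, plus strand: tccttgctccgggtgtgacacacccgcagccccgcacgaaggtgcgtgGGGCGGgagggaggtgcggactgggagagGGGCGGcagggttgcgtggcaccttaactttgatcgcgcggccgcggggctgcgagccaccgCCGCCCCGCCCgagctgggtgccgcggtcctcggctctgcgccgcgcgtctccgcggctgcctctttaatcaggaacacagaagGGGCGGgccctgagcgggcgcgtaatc

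The capitals mark the GC box GGGCGG, bound by Sp1-type factors, and in Sema3c also the hypoxia-response core ACGTG, both searched on either strand. Sema3e held 2 GC boxes, starting 48 and 9 bases before the gene start, Sema3c held 3, Nrp1 held 1, and Nrp2 held 5, of which those at 111 and 106 overlap by 1 base. A GC box was found in 32.7% of all 32851 windows of this length, and ACGTG in 16.6%. TGGGAA, the core recognised by the Notch effector RBPJ, was in none of the 8 member windows and in 21.6% of all windows. TATAAA (12.4% of all windows) and TGANTCA (6.7%) were in none of the 8 either. CCAAT (33.8%) was in that of Sema3d alone, and no capital above stems from it. The windows differed in base composition, with 48.0% G or C and 7 CpG in Sema3e, 78.4% and 39 in Sema3c, 64.4% and 11 in Nrp1, and 72.4% and 32 in Nrp2, against medians of 52.4% and 6 over all windows. These matches describe letters and say nothing of binding.

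Values are log2 probe set values as deposited, so a difference of 1 is a 2-fold difference. Probe sets differ in how strongly they bind, and levels are therefore compared between arrays and never between probe sets. Prom1, the gene of the sorted antigen, was higher on every CD133 high array (6.80, 6.63 and 6.40) than on every CD133 low array (5.49, 5.92 and 6.06), with a difference of 0.79 (SE 0.26, limma adjusted p = 0.297). This check of the labels did not pass the threshold of 0.05. CD133 high replicate 1 stood apart from the other CD133 high arrays. Its mean Spearman correlation, across probe sets, was 0.97 with the CD133 low arrays and 0.93 with the other CD133 high arrays. Bacterial hybridisation controls, which are added before hybridisation, averaged 10.38, 11.29 and 11.04 on CD133 high replicates 1, 2 and 3, against 10.19 to 10.51 on the CD133 low arrays. The 3′ Gapdh control minus the mid-transcript Gapdh control gave −0.13, 0.44 and 0.46 for the same CD133 high arrays, and −0.09 to −0.07 for the CD133 low ones. Results are therefore given with and without replicate 1. Without it, the CD133 high arrays that remain are those with the raised controls. In that fit the sort and whatever raised the controls cannot be told apart, for any gene or count.

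Sema3e was higher on every CD133 high array than on every CD133 low array at its brighter probe sets. Its brightest probe set (1419717_at) read 7.96, 7.36 and 7.59 on CD133 low arrays and 9.30, 9.41 and 9.46 on the CD133 high arrays. The groups were far apart, and the 3 CD133 high arrays lay closer together than the CD133 low ones, at 9.39 ± 0.0852 against 7.64 ± 0.304 (SD, n = 3 arrays each). The difference was 1.75 (SE 0.19), or 3.36-fold, with an adjusted p of 0.0361 from limma. It was the single member probe set past the threshold, beside 0.0155% of all probe sets called higher and 0.167% called lower. In RNA of sorted tumour cells, more cells that express Sema3e and more Sema3e RNA per cell cannot be told apart.

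A second Sema3e probe set gave the same picture. Probe set 1442226_at read 6.92, 6.66 and 6.89 on CD133 low arrays and 8.01, 8.22 and 8.38 on the CD133 high arrays. The groups again did not overlap, and the difference of 1.39 (SE 0.19, 2.61-fold) had a limma adjusted p of 0.0621. Over the 6 arrays the values of both probe sets correlated at r = 0.99, a figure that the gap between the fractions largely sets. The dimmer pair did not separate the groups. Probe set 1425906_a_at read 4.77, 5.53 and 4.89 on CD133 low arrays and 6.95, 4.47 and 6.25 on the CD133 high arrays. Probe set 1427673_a_at read 4.79, 4.59 and 4.16, and then 6.79, 6.32 and 4.49. In each of these a different CD133 high array lay at the level of the CD133 low arrays, and 22.9% to 26.5% of the probe sets of an array stood below 5.

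**Figure D1:**
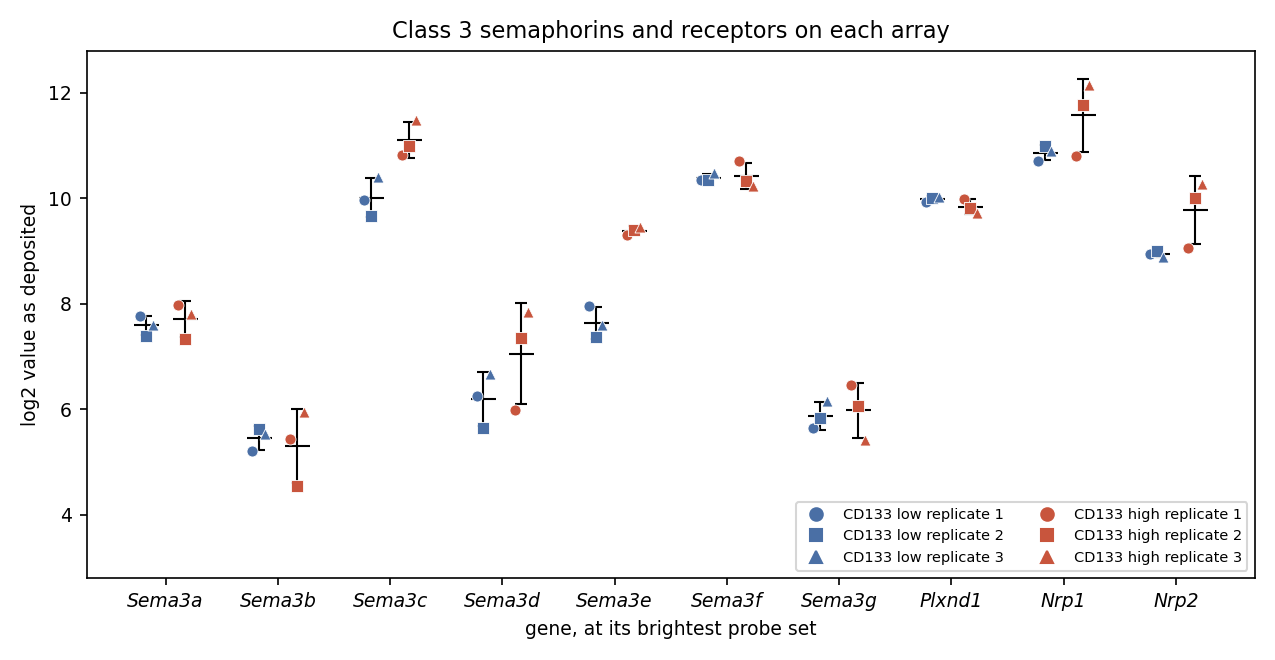
Log2 values as deposited (vertical axis) of the 10 genes at their brightest probe sets (horizontal axis), with CD133 low arrays in blue, CD133 high arrays in red, a symbol for each replicate number, and the mean and SD of 3 arrays in black. Sema3e and Sema3c are higher on all CD133 high arrays, whereas for Nrp1 and Nrp2 CD133 high replicate 1 sits beside the CD133 low arrays. Heights are not comparable between genes, and replicate numbers pair no arrays.

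Under the alternatives fitted to single probe sets, the Sema3e difference lay between 1.61 and 1.91 for 1419717_at and between 1.19 and 1.48 for 1442226_at, the lowest being CD133 high replicate 1 alone for the latter. It ranged more widely for the dimmer pair, between 0.30 and 1.91 for 1425906_a_at and between 0.89 and 2.28 for 1427673_a_at. With all Sema3e probe sets averaged the difference was 1.33 (SE 0.23), and the call was lost (limma adjusted p = 0.0847). That of 1419717_at was also lost with values below 5 set to 5 (adjusted p = 0.0836), without a variance trend (adjusted p = 0.0977) and once the hybridisation controls entered as a covariate (adjusted p = 0.112), all from limma. Leaving out any array other than CD133 high replicate 1 also ended it, with limma adjusted p-values of 0.131 to 0.307. Without CD133 high replicate 1 the limma adjusted p-values were 0.00547 and 0.00548 for the brighter probe sets. There the sort and the raised hybridisation and 3′ Gapdh controls cannot be told apart. Taken alone, CD133 high replicate 1 exceeded the mean of the CD133 low arrays by 1.66 and 1.19, close to the 1.77 and 1.40 of replicate 2 and the 1.82 and 1.56 of replicate 3. The array that resembled the CD133 low arrays across probe sets thus lay close to the others of its fraction in Sema3e at 1419717_at.

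**Figure D2:**
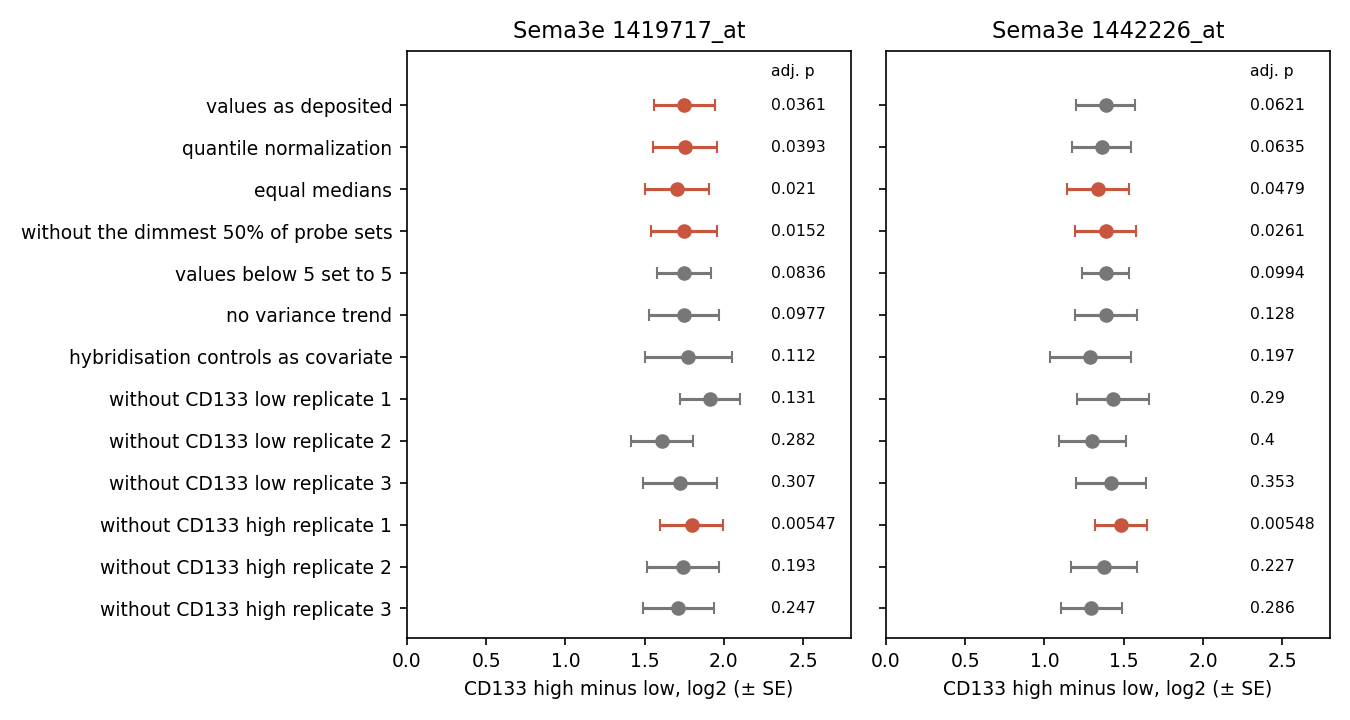
Difference between CD133 high and CD133 low arrays in log2 units (horizontal axis, point ± SE from limma) for the brighter probe sets of Sema3e under each setting (vertical axis), with the adjusted p printed at the right and red where it is under 0.05. The points of 1419717_at keep between 1.61 and 1.91 while the adjusted p moves from 0.00547 to 0.307.

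Sema3c, a ligand of both neuropilins, had the next clearest difference among the ligands at a brightest probe set. Probe set 1429348_at read 9.97, 9.66 and 10.40 on CD133 low arrays and 10.82, 11.00 and 11.49 on the CD133 high arrays. The CD133 high arrays were all above the highest CD133 low array, and the difference was 1.09 (SE 0.26, 2.13-fold, limma adjusted p = 0.244), and replicate 1 took part with 0.81. The other Sema3c probe set, 1420696_at, read 7.62, 7.61 and 7.84 and then 8.01, 7.12 and 8.11. There the groups overlapped, with a difference of 0.05 (SE 0.29), so the probe sets of Sema3c disagree.

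Sema3d, a guidance ligand that acts through neuropilins, was high on CD133 high replicates 2 and 3 alone. Probe set 1429459_at read 6.25, 5.65 and 6.68 on CD133 low arrays and 5.98, 7.34 and 7.84 on the CD133 high arrays. The dim probe set 1453148_at read 3.65, 3.87 and 3.14 and then 3.30, 5.32 and 4.63. In both, CD133 high replicate 1 lay within the CD133 low range, and the differences of 0.86 (SE 0.52) and 0.86 (SE 0.57) had limma adjusted p-values of 0.42 and 0.458. Replicates 2 and 3 were also the arrays with raised hybridisation and 3′ Gapdh controls, so a fit with these controls leans on replicate 1. After adding the hybridisation controls as a covariate, the differences were 0.11 at 1429459_at and −0.39 at 1453148_at, where the sign turned.

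Sema3b, a ligand described as a tumour suppressor in lung cancer, gave discordant probe sets near the bottom of the scale. Probe set 1431795_a_at was listed at 0 on CD133 low replicates 1 and 2 and at 0.38 on replicate 3, and read 1.88, 4.29 and 2.95 on the CD133 high arrays. Every value was below 5, so no fold is given, and the difference vanishes when values below 5 are set to 5. Probe set 1416644_a_at read 2.38, 5.35 and 4.78 and then 5.48, 5.74 and 5.96, with all CD133 high arrays above and CD133 low replicate 1 far below the rest. The brightest, 1448415_a_at, read 5.20, 5.63 and 5.53 and then 5.43, 4.55 and 5.94, with the groups overlapping and a difference of −0.15 (SE 0.41).

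The remaining ligands differed little. Sema3a, the classical growth cone repellent, read 7.77, 7.40 and 7.60 and then 7.98, 7.33 and 7.81 at its brightest probe set (1420416_at), a difference of 0.12 (SE 0.23). Its other probe sets differed by 0.19 and 0.62, with overlapping groups. Sema3f, which signals mainly through neuropilin 2, read 10.36, 10.34 and 10.48 and then 10.70, 10.32 and 10.24 at 1438947_x_at, a probe set whose name marks probes shared with other sequences, and differed by 0.03 (SE 0.17). Its dimmer probe sets differed by 0.54 (SE 0.34) and 0.70 (SE 0.38), in each with overlapping groups. Sema3g, known from endothelium, read 5.64, 5.82 and 6.15 and then 6.46, 6.05 and 5.42 at its single probe set. The limma adjusted p-values of the probe sets of these 3 ligands ran from 0.387 to 0.939.

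Plexin D1, the receptor of Sema3E, differed little between the fractions. Its single probe set read 9.94, 10.01 and 10.03 on CD133 low arrays and 9.997, 9.81 and 9.72 on the CD133 high arrays. The groups overlapped, and the difference of −0.15 (SE 0.14, limma adjusted p = 0.595) has the opposite sign to that of Sema3e. Replicates 2 and 3 lay below every CD133 low array by a small margin, and replicate 1 lay among them.

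At their brightest probe sets, neuropilin 1 and neuropilin 2 were high on CD133 high replicates 2 and 3, with replicate 1 close to the CD133 low arrays. Nrp1 read 10.71, 10.99 and 10.89 on CD133 low arrays and 10.80, 11.77 and 12.15 on the CD133 high arrays at 1448943_at. The difference was 0.71 (SE 0.34, limma adjusted p = 0.347), and the groups overlapped through replicate 1 alone. Probe sets 1448944_at and 1418084_at, which were designed on the same transcript record, differed by 0.54 (SE 0.31) and 0.38 (SE 0.26) with the same ordering of the CD133 high arrays. The dim probe set 1457198_at ran the other way, at 5.36, 5.57 and 5.74 and then 5.62, 5.06 and 4.77.

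Nrp2, the neuropilin linked to lymphatic vessels, read 8.94, 9.001 and 8.89 on CD133 low arrays and 9.06, 10.004 and 10.27 on the CD133 high arrays at 1426528_at. Here the groups did not overlap, although replicate 1 exceeded the highest CD133 low array by little, and the difference was 0.83 (SE 0.31, limma adjusted p = 0.302). Probe set 1435349_at read 8.58, 8.80 and 8.79 and then 8.93, 9.25 and 9.57, a difference of 0.52 (SE 0.20, limma adjusted p = 0.304). The other probe sets of Nrp2 did not separate the groups. Of these, 1456778_at read 9.22, 9.24 and 9.30 and then 9.27, 9.0001 and 9.39, a difference of −0.03 (SE 0.16). On the CD133 low arrays 1456778_at was brighter than 1426528_at, with means of 9.26 and 8.95. Brightness is ranked over all 6 arrays, so 1426528_at is the brightest probe set of Nrp2 only through the CD133 high arrays. Probe set 1447343_at was high on CD133 high replicate 3 alone, at 8.28 against 6.78 to 7.42 on the CD133 low arrays.

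Several neuropilin differences moved with the technical controls. After adding the hybridisation controls as a covariate, the difference of Nrp1 at 1448943_at was −0.0078 and that of Nrp2 at 1426528_at was 0.17, whereas those of Sema3e at 1419717_at and Sema3c at 1429348_at were 1.78 and 1.02. Nrp2 at 1435349_at gave 0.23 in place of 0.52, whereas 1447343_at and 1456778_at gave 0.51 and 0.07 with the covariate, against 0.44 and −0.03 without it. Without CD133 high replicate 1 the differences were 1.10 (SE 0.16) for Nrp1 and 1.19 (SE 0.12) for Nrp2, with limma adjusted p-values of 0.00982 and 0.00462. With replicate 1 alone they were −0.06 and 0.11. A share of the neuropilin difference that belongs to the sort and a share that belongs to these arrays cannot be told apart.

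**Figure D3:**
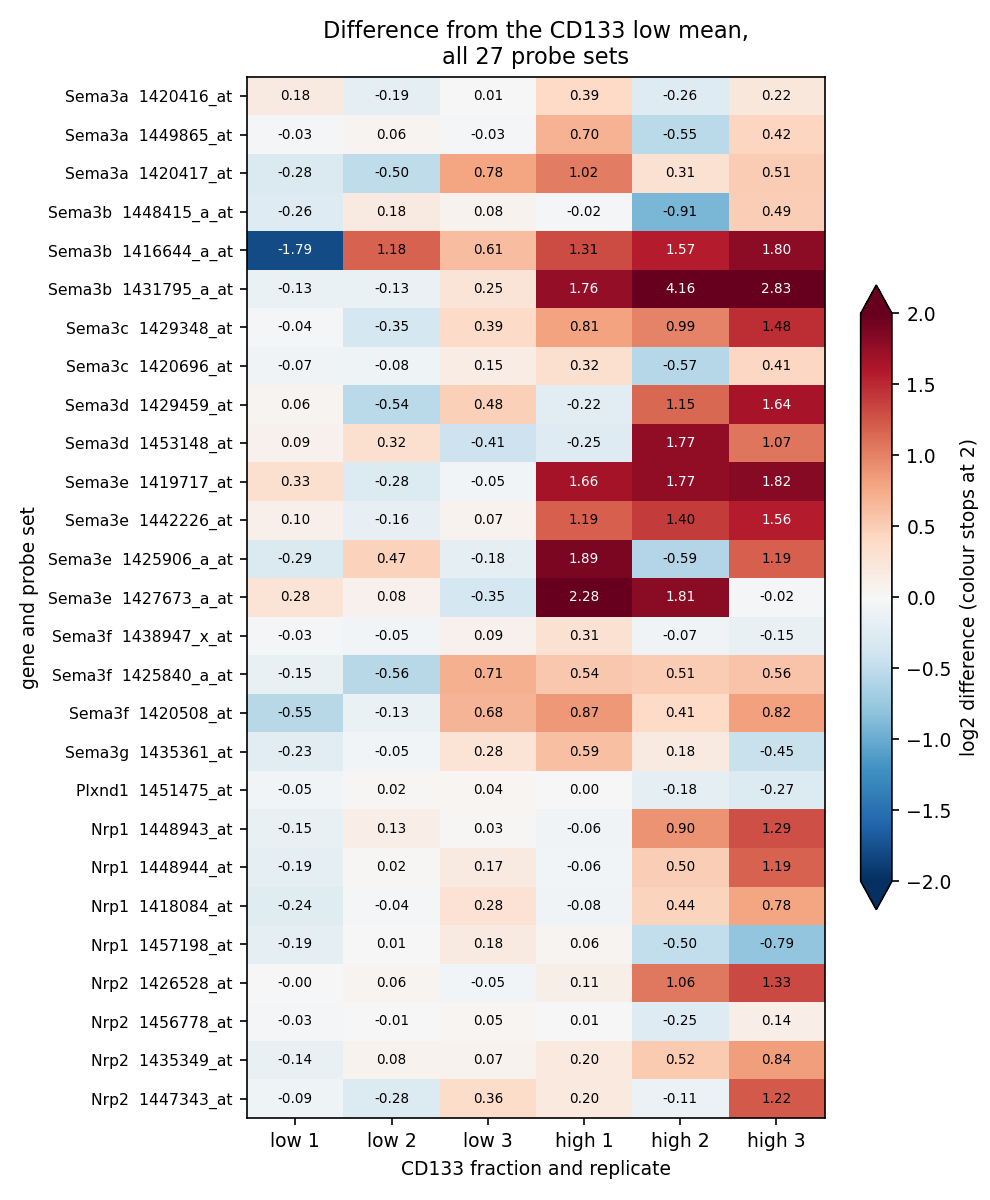
Log2 difference of each array (columns, by CD133 fraction and replicate) from the mean of the CD133 low arrays for all 27 probe sets (rows), with the value printed in each cell and colour that stops at 2. The brighter Sema3e probe sets are red on all CD133 high arrays, and the 3 brighter Nrp1 probe sets and both Sema3d probe sets are above 0 on replicates 2 and 3 and below 0 on replicate 1.

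Taken as a set, 23 of the 27 member probe sets had a positive difference, with a median of 0.54 against 0.02 over all probe sets tested. The ligand probe sets had a median of 0.76 (17 of 18 positive) and the receptor probe sets one of 0.44 (6 of 9 positive). In 7 member probe sets the lowest CD133 high array was above the highest CD133 low array, as in 10.3% of all probe sets, and in 0 the order was the opposite, as in 10.5% of all. Nothing is read from these counts, since the genes were picked on this comparison and probe sets of a gene share its transcripts. By replicate, the median over ligand probe sets was 0.75 on CD133 high replicate 1, 0.46 on replicate 2 and 0.69 on replicate 3, whereas that over receptor probe sets was 0.01, 0.44 and 0.84. Without CD133 high replicate 1, 8 member probe sets of 6 genes were higher and 0 lower in limma, beside 9.50% of all probe sets higher and 11.8% lower. They were those of Sema3b (1431795_a_at), Sema3c (1429348_at), Sema3d (1429459_at), Sema3e (1419717_at and 1442226_at), Nrp1 (1448943_at) and Nrp2 (1426528_at and 1435349_at). At an unadjusted p under 0.05 that fit held 11 member probe sets higher and 0 lower, beside 17.7% and 19.1% of all probe sets.

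Other genes of semaphorin signalling were read at their brightest probe sets. Of 66 measured genes in 5 lists, 0 passed the threshold in limma, beside 0.0220% of all genes called higher and 0.231% called lower, and 9 higher and 6 lower had an unadjusted p under 0.05, beside 8.30% and 9.94% of all genes. The median difference over these genes was 0.05, against 0.0013 over all 18193 genes and 0.41 over the 10 members at their brightest probe sets. Nothing is read from the higher median of the members, since they were picked with this comparison known. Without CD133 high replicate 1, 12 of the 66 were higher and 10 lower, beside 11.7% and 14.6% of all genes.

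The 8 other plexins had a median of −0.14, and 3 of their differences were positive. Plxna2 and Plxnb3, which encode receptors of the A and B classes, read 8.60, 8.55 and 8.59 and then 8.33, 8.11 and 7.80, and 7.97, 7.95 and 7.91 and then 7.81, 7.11 and 7.23. In both genes all CD133 high arrays lay below all CD133 low arrays, by 0.50 and 0.56 (limma adjusted p = 0.3 and 0.309). Plxnb2, a receptor of class 4 semaphorins, read 8.96, 8.88 and 9.39 and then 9.11, 10.49 and 10.92, with replicate 1 again inside the CD133 low range. Plxna1, Plxna3 and Plxna4, through which neuropilin-bound ligands signal, differed by 0.05, 0.22 and −0.04.

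Semaphorins of other classes, membrane-bound or anchored proteins of which 13 were measured, had a median of 0.05. Sema6d, a transmembrane ligand of A-class plexins, read 9.68, 9.37 and 9.54 and then 9.75, 10.32 and 10.58, a difference of 0.69 (limma adjusted p = 0.297) with all CD133 high arrays above. Sema7a, the GPI-anchored member, read 9.65, 9.67 and 9.79 and then 9.73, 10.94 and 11.32, so replicate 1 overlapped with the CD133 low arrays. Sema5b differed by −0.76 (limma adjusted p = 0.322), with all CD133 high arrays below.

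The 12 VEGF family genes, VEGF receptors and co-receptors had a median of 0.05. Vegfc, a lymphatic growth factor that neuropilin 2 binds, had the smallest p of the pathway lists. It read 7.76, 8.19 and 8.22 on CD133 low arrays and 8.65, 9.58 and 9.94 on the CD133 high arrays, which did not overlap, and differed by 1.33 (SE 0.34, limma adjusted p = 0.276). Chl1, an adhesion molecule that pairs with neuropilins, read 8.39, 8.56 and 8.93 and then 8.84, 10.02 and 10.65, again with replicate 1 inside the CD133 low range. Met, the receptor of hepatocyte growth factor and a partner of plexins, differed by 0.41 with all CD133 high arrays above (limma adjusted p = 0.303). Vegfa and its receptors Kdr and Flt1 differed by 0.01, 0.09 and −0.03. Of the 12 differences, 7 were positive and 5 negative. Vegfb had the largest in size of the pathway lists, at −2.05 (limma adjusted p = 0.351). It read 7.54, 8.59 and 8.24 and then 8.53, 4.47 and 5.22. Pgf read 9.74, 9.62 and 9.70 and then 10.29, 8.59 and 8.77, a difference of −0.47 (limma adjusted p = 0.586). Both were low on CD133 high replicates 2 and 3 alone, the arrays with raised controls.

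Intracellular plexin signalling, with 27 of 28 genes measured, had a median of 0.06. Ranbp9, which encodes a scaffold of plexin A, differed by 0.67 with all CD133 high arrays above (limma adjusted p = 0.295). Dpysl4, of the collapsin response mediator family, and Fyn, a Src-family kinase downstream of A-class plexins, differed by −0.88 and −0.38 with all CD133 high arrays below (limma adjusted p = 0.297 for both). Of 6 proprotein convertases measured, Furin and Pcsk6, which cut many secreted precursors, lay above all CD133 low arrays on every CD133 high array, by 0.32 and 0.34 on average (limma adjusted p = 0.325 and 0.34). Pcsk5 was high on replicates 2 and 3 alone, at 11.09 and 11.06 against 9.68 on replicate 1.

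**Figure D4:**
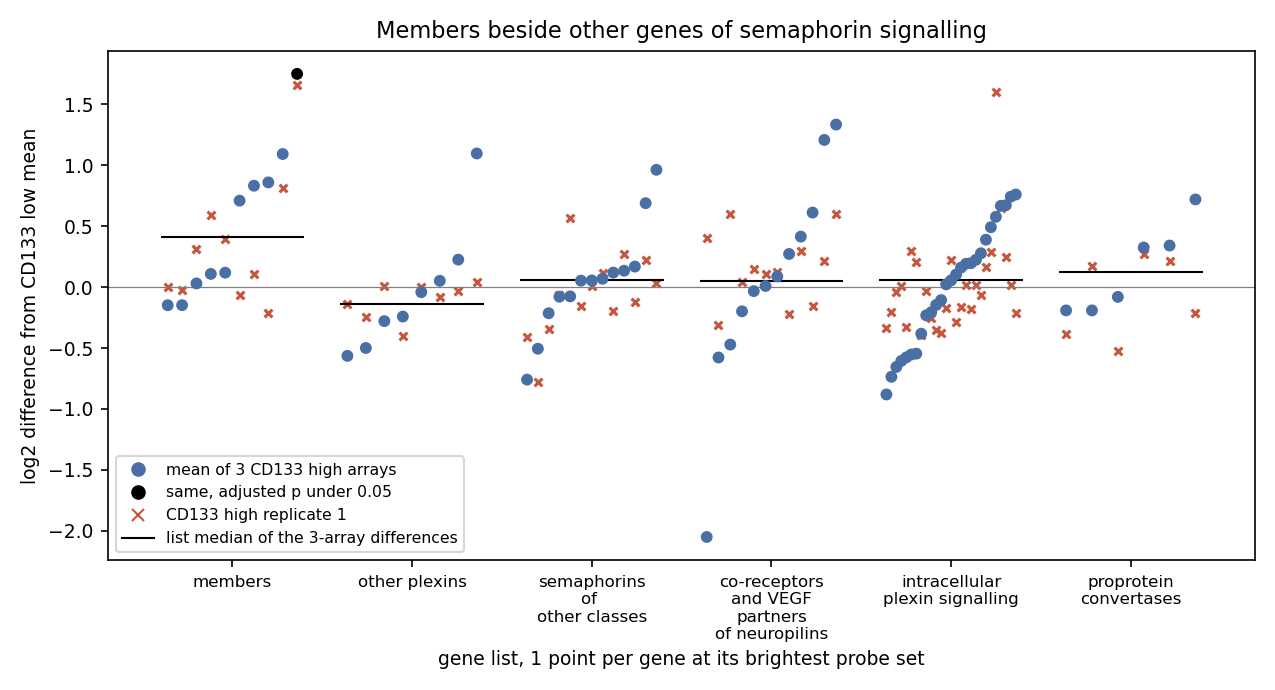
Log2 difference from the mean of the CD133 low arrays (vertical axis) for each gene at its brightest probe set, by gene list (horizontal axis), as the mean of the 3 CD133 high arrays (filled points, black where the adjusted p is under 0.05), as CD133 high replicate 1 alone (crosses), with a line at the list median. Sema3e at 1.75 is the single black point, and its cross at 1.66 lies close to it. The members were picked with this comparison known, so their column is not to be weighed against the others.

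Markers of other cells were measured beside these genes, each list as the log2 of its summed linear signal, and no measured marker was at 0 on all arrays. The 10 epithelial markers, among them Epcam and Cdh1, summed to 14.42 to 14.62 on CD133 low arrays and 14.29 to 14.74 on the CD133 high arrays. The 12 endothelial markers summed to 11.58 to 11.86 and 11.68 to 11.98, the 8 fibroblast markers to 15.65 to 15.77 and 15.67 to 16.07, and the 8 pericyte and smooth muscle markers to 13.33 to 13.41 and 13.26 to 13.39. Those groups overlapped, and no gene of these lists passed in limma. At an unadjusted p under 0.05, 1 endothelial gene was higher, and 1 fibroblast and 1 epithelial gene lower. Of all genes, 8.30% were higher and 9.94% lower at that cut. Without CD133 high replicate 1, 1 endothelial gene was higher and 3 lower in limma, with 2 and 1 for fibroblasts, 1 and 1 for pericytes and smooth muscle, and 2 and 1 for epithelium. In that fit 11.7% of all genes were higher and 14.6% lower. The endothelial genes were Egfl7 (1.38), Emcn (−1.18), Vwf (−0.90) and Pecam1 (−0.87). Those of fibroblasts were Pdgfra (0.92), Col1a1 (0.64) and Thy1 (−1.51). The others were Tagln (0.83) and Rgs5 (−0.60) of pericytes and smooth muscle, and Muc1 (1.51), Epcam (0.38) and Krt18 (−0.76) of epithelium. The 7 measured macrophage markers summed to 15.38 to 15.53 and 15.42 to 15.63, so RNA of these host cells was present in both fractions. As summed signal, lymphocyte markers were lower in the CD133 high fraction, though not every gene was. The difference was positive for 2 of the 8 T-cell and 2 of the 6 B-cell markers. The 8 T-cell markers measured summed to 12.35 to 12.79 on CD133 low arrays and 10.50 to 10.76 on the CD133 high arrays, with 5 lower in limma (6 lower and 1 higher without CD133 high replicate 1), and the 6 B-cell markers to 12.25 to 12.59 and 10.23 to 11.02, with 3 lower in either fit. Of all genes, 0.231% were called lower with all arrays and 14.6% without CD133 high replicate 1. The 8 dendritic cell markers summed to 12.37 to 12.43 and 11.04 to 11.93, and the 5 Schwann cell and nerve markers to 11.01 to 11.17 and 10.82 to 10.97. None of these or of the macrophage markers passed in limma with all arrays, where 4 dendritic cell genes and 1 Schwann cell gene were lower and 1 macrophage gene higher at an unadjusted p under 0.05. Without CD133 high replicate 1, 5 dendritic cell, 2 Schwann cell and 1 macrophage gene were lower in limma, beside the same 14.6% of all genes. The part of these cells in the values of Sema3e, Sema3c or the neuropilins was not tested.

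The genes whose values most resembled those of Sema3e at 1419717_at over the 6 arrays were Rab11fip1, Lratd1, Thbs4, Tspan12 and Bmp2, each at r = 0.99, out of 4393 genes in the brighter part of the array with a range of at least 1. The points share 2 fractions, and any gene that separates the fractions evenly scores high. Thbs4, which encodes the matrix protein thrombospondin 4, read 7.92, 7.60 and 7.63 and then 8.81, 8.79 and 9.04. Tspan12, a tetraspanin that assists Norrin signalling in retinal vessels, read 9.28, 8.74 and 9.04 and then 10.03, 10.33 and 10.30. Rab11fip1, an effector of recycling endosomes, read 9.67, 9.24 and 9.48 and then 10.35, 10.39 and 10.34. In all 5 genes the fractions did not overlap, and CD133 high replicate 1 lay with the other CD133 high arrays. Their choice by likeness to Sema3e over the same arrays largely fixes this, so it adds nothing to Sema3e. The limma adjusted p-values of these 5 genes ran from 0.0699 to 0.123.

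Sema3d, Sema3a, Sema3e and Sema3c lie in that order on chromosome 5 (RefSeq, GRCm38.p6), the chromosome that also carries Prom1. Between Sema3d and Sema3c 9 other genes were measured, and their median difference was 0.23, against 0.0013 over all genes. Cacna2d1, a calcium channel subunit gene, read 7.56, 7.09 and 6.97 and then 7.91, 7.997 and 7.80, a difference of 0.70 (SE 0.21) with no overlap. Hgf, which encodes hepatocyte growth factor, the ligand of Met, read 6.48, 6.79 and 6.77 and then 6.83, 7.89 and 7.75, with replicate 1 just above the CD133 low arrays. Sema3a, which lies between Sema3d and Sema3e, differed by 0.12, and the 4 semaphorin genes did not move alike. Cacna2d1 and Hgf were singled out after their values were seen. Several of the 9 are Speer genes, near-identical copies whose probes can share signal. Of these, Speer4f1, Speer8-ps1 and Speer4cos differed by −1.45 (SE 0.71), −0.11 and −0.06, the only differences below 0 in this stretch.

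**Figure D5:**
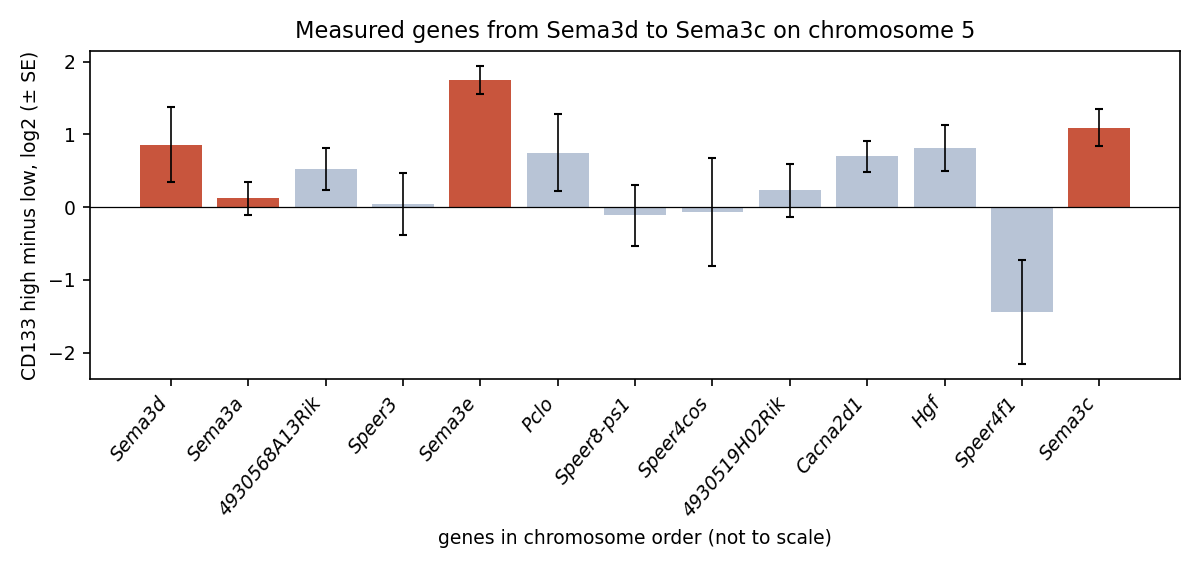
Difference between CD133 high and CD133 low arrays in log2 units (vertical axis, bars from 0, ± SE from limma) for the measured genes from Sema3d to Sema3c in chromosome order (horizontal axis, not to scale), with semaphorin genes in red and others in grey-blue. Sema3e at 1.75 and Sema3c at 1.09 are the tallest bars above 0, and Sema3a stands at 0.12.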

How the data were processed

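RNA of 3 CD133 high and 3 CD133 low samples was measured on arrays. The range of the deposited table shows log2 values. The summarisation and normalization by the authors are not stated in these sources. The array in the labels is smaller than the table, which holds 45101 probe sets. The number of arrays limits precision.

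After removal of 64 control probe sets, 45037 were fitted with limma 3.58.1 on the values as deposited, with a variance trend, two-sided, and Benjamini-Hochberg adjustment over all of them (threshold 0.05). Probe sets with a single annotated gene number 34945, those with several 932 and unnamed ones 9160. Entrez genes of RefSeq matched 34741, and no symbol changed. A gene in a list is represented by its brightest probe set, ranked by the mean over all 6 arrays. That rule can favour a probe set that is high in either fraction, as for Nrp2. Replicates were numbered in accession order and pair nothing. The R release was 4.3.3, and tables were read by data.table at version 1.17.8. No exact permutation test was run, since with 3 arrays in each group its smallest two-sided p is 0.1.

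The members, lists and tests were chosen with earlier results of these data known. Named are all member probe sets, Prom1, up to 3 genes of smallest p in each pathway list, and the 5 genes most like Sema3e. Other genes named in the lists (Plxna1, Plxna3, Plxna4, Vegfa, Vegfb, Pgf, Kdr, Flt1, and markers called without CD133 high replicate 1) were chosen after their values were seen. RefSeq upstream windows were found for 8 of the 10 members. In simulated data with 200 changed probe sets and the spread of the CD133 low arrays, 28.0%, 74.0% and 67.3% of changes of 1, 2 and 3 were recovered, with 3 false calls. The CD133 high arrays spread more at some probe sets, such as Nrp1 1448943_at (SD 0.70 against 0.14). These shares therefore do not give the recovery to be had in the measured comparison. Alternatives were quantile normalization, equal medians, a filter on the dimmest 50%, a floor at 5, no variance trend, a threshold of 0.1, hybridisation controls as a covariate, averaging the probe sets of a gene, and leaving out each array. CD133 high replicate 1 alone was added after seeing the data.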

Additional observations from a re-analysis of the deposited data

How the results depend on the processing

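Counts of calls moved with the settings. Over all probe sets 7 were higher and 75 lower. With equal medians these were 12 and 152, without the dimmest 50% of probe sets 11 and 164, without a variance trend 1 and 6, and at a threshold of 0.1 25 and 170, while with values below 5 set to 5, 31 were lower. Leaving out each array gave 0 to 4277 higher and 0 to 5326 lower, the upper values without CD133 high replicate 1. Of the member probe sets 1 was called higher. That count was 2 with equal medians, without the dimmest 50% and at a threshold of 0.1, the added one being Sema3e 1442226_at. It was 0 with values below 5 set to 5, without a variance trend and once the hybridisation controls entered as a covariate. There 5, 4 and 4 member probe sets were higher at an unadjusted p under 0.05 in limma. Of all 45037 probe sets 2408, 3110 and 2099 were. The count of member probe sets called higher ranged from 0 to 8 on leaving out each array, beside the 0 to 4277 of all probe sets. Pathway genes called ranged from 0 to 12 higher and 0 to 10 lower on leaving out each array. The upper values came without CD133 high replicate 1, where 11.7% and 14.6% of all genes were called. Under every other setting the counts were 0 in both directions in limma, averaging the probe sets of a gene included. There an unadjusted p under 0.05 was found for 3 to 9 higher and 1 to 8 lower genes. On the values as deposited, 8.30% and 9.94% of all genes had such a p in limma. Of 339 member differences recomputed under the alternatives, 306 moved by less than the spread between replicates and 33 by more. Some of the 306 could not move, so the count is no measure of stability. Dropping the variance trend or the dimmest 50% leaves a difference as it was. The floor at 5 does the same for probe sets with no value below 5. The sign held under every alternative for 11 of the 27 member probe sets, among them all 4 of Sema3e. Signal over background limits the 9 member probe sets with a value below 5. No paired analysis was possible because the labels give no replicate numbers.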
